A study of Mus musculus with 16 samples.

Results

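Inflammasome, pyroptosis and necroptosis genes were followed through permanent coronary ligation in hearts with and without PKM2, the splice form of pyruvate kinase that lacks the high constitutive activity of PKM1. The 10 genes were Nlrp3, Aim2, Nlrc4, Pycard, Casp1, Casp4, Gsdmd, Ripk1, Ripk3 and Mlkl. They were taken by symbol from a table of 55492 mouse genes, and all 10 were present and passed the filter on low levels, a mean of at least 10 normalized counts. Left ventricle RNA came from male C57BL/6 mice aged 8 to 12 weeks. PKM2fl/fl mice carried loxP-flanked alleles without Cre. PKM2-/- mice descended from a cross with the ubiquitous CMV-Cre line, lacked exon 10 in every cell of the body, and had Cre bred out again. Each genotype had 2 untreated hearts (baseline), 3 hearts after sham surgery and 3 hearts with a myocardial infarction (MI) from permanent ligation of the left anterior descending artery, the surgical groups being studied 3 days after surgery.

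An inflammasome is a cytosolic scaffold that a sensor builds after it detects damage or microbial products. The adaptor ASC, encoded by Pycard, couples the sensor to caspase-1, which matures interleukin-1β and interleukin-18 and cuts gasdermin D, and the freed gasdermin D fragment opens pores in the plasma membrane, a lytic death called pyroptosis. Necroptosis reaches the same end by another route, in which RIPK1 and RIPK3 assemble when caspase-8 is inactive and RIPK3 phosphorylates MLKL, whose oligomers break the membrane. Both routes are known to operate in infarcted hearts, in resident cells and in incoming leukocytes. Transcript levels do not report cleavage or phosphorylation, the steps at which these proteins act.

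For all 10 genes every MI library stood above every sham library of the same genotype, as was so for 30.0% of all genes tested in PKM2fl/fl and 31.7% in PKM2-/- hearts. Genes were called changed where limma's moderated test, fitted to 16 libraries in 6 groups, gave a Benjamini-Hochberg adjusted p below 0.05 over 20576 genes. The rise passed this test for 8 of the 10 genes in PKM2fl/fl hearts, against 24.8% of all genes, and for 10 of 10 in PKM2-/- hearts, against 28.7%. Ripk3 had the largest fold change in PKM2fl/fl hearts, 4.72-fold, and Nlrp3 the largest in PKM2-/- hearts, 7.84-fold. Between the genotypes 0 of 10 passed it at baseline, after sham surgery or after MI, where at most 0.573% of all genes passed in either direction of 1 comparison. Casp4 was 2.81-fold higher after sham surgery than at baseline in PKM2-/- hearts and passed the test, where 3.48% of all genes passed with higher levels. In PKM2fl/fl hearts Casp4 was also higher, by 0.97 on the log2 scale, but did not pass. Whether this step differs between the genotypes was not tested.

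The libraries held 20623769 to 71855101 reads in genes, and loci related to ribosomal RNA took 15.8 to 46.3% of them. At baseline this share was 17.3 to 22.1% in PKM2fl/fl and 39.9 to 44.0% in PKM2-/- libraries. After sham surgery it was 15.8 to 27.8% and 28.7 to 46.3%, so in both conditions the genotypes did not overlap. After MI it was 19.9 to 44.9% and 16.1 to 34.7%. Cardiomyocyte markers were present in every library, and lymphocyte markers summed to at most 138 normalized counts. Pkm, the targeted gene, was measured as the sum of its splice forms, so its level, 9108 to 9602 in PKM2fl/fl and 11981 to 12984 in PKM2-/- baseline hearts, does not check the deletion of exon 10. Sham library 3 of PKM2fl/fl stood apart from the other sham libraries in neutrophil markers, with a summed level of 238 against 1068 to 1387 in the other five. MI library 3 of PKM2fl/fl stood apart from MI libraries 1 and 2 in cardiomyocyte markers, with a sum of 212657 against 479162 to 491012. In the PKM2-/- MI libraries that sum was 223024 to 305736. The labels number the libraries of a group without naming a mouse for each. In a supplementary legend the paper counts the samples of its RNA sequencing groups as mice. The p-values measure the spread between these samples, which may in part be technical.

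Upstream sequence is shown for the 5 genes on which the results below turn: the 2 sensors with the largest changes, the neighbouring caspase genes, and the kinase with the largest change in PKM2fl/fl hearts. Each run of 200 bases spans positions 250 to 51 before a RefSeq transcript start in GRCm38.p6, the assembly of the mm10 build. The Nlrp3 window lies at chr11:59541319-59541518 on the + strand, the Aim2 window at chr1:173420354-173420553 on the + strand, the Casp1 window at chr9:5298267-5298466 on the + strand, the Casp4 window at chr9:5308599-5308798 on the + strand and the Ripk3 window at chr14:55788908-55789107 on the - strand. The Aim2 window precedes an internal start within the RefSeq gene, and the other windows lie upstream of their genes. Capitals mark matches to the motifs searched.
Nlrp3: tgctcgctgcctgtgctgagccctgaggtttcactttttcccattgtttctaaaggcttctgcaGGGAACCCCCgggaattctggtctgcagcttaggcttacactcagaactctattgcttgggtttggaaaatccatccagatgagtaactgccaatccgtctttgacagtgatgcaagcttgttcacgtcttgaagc
Aim2: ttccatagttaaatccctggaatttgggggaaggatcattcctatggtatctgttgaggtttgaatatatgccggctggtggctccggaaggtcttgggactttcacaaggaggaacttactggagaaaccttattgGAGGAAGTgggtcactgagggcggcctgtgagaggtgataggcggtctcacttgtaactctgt
Casp1: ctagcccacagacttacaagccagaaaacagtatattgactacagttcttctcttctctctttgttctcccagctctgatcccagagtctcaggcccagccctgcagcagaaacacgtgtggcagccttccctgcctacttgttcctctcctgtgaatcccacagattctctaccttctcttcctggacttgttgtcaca
Casp4: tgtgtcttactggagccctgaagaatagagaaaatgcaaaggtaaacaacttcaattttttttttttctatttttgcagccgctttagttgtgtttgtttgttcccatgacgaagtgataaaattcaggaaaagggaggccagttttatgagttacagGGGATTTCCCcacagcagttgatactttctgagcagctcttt
Ripk3: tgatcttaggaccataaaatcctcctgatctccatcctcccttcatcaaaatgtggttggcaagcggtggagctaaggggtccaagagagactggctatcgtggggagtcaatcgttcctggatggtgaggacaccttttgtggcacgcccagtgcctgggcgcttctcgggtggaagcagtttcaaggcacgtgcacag
The capitals in Nlrp3 and Casp4 match the NF-kB spelling GGGANNNNCC, and the Casp4 match, GGGATTTCCC, reads as a match on both strands. The capitals in Aim2 match the PU.1 (ETS) spelling GAGGAAGT. RefSeq gives some genes more than 1 start, and the member windows numbered 12 for 9 members with an entry, 2 each for Nlrp3, Casp4 and Ripk1. Of the 9, 2 held the NF-kB spelling in at least 1 window, against 15.5% of 27025 genes counted the same way, and 1 held the PU.1 spelling, against 2.04%. The other Nlrp3 window, at chr11:59542436-59542635 inside the gene, held no match. The interferon element, a pair of GAAA runs with 2 bases of any kind between them, was in no member window and in 2.82% of genes. The GAS spelling TTCNNNGAA was in 1 of the Ripk1 windows and in 6.71% of genes, and the AP-1 spelling TGANTCA was in no member window and in 6.51% of genes. Both strands were searched, and the 5 spellings were matched separately. A match is a run of letters and was not tested as a binding site.

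The sensors were measured first because they start the inflammasome. Nlrp3 (chr11:59541569-59566955) encodes the sensor of potassium loss and membrane damage. Its normalized counts were 69.3, 103 and 48.5 in PKM2fl/fl sham libraries 1 to 3 and 247, 189 and 279 in the MI libraries. In PKM2-/- hearts they were 35.4, 60.1 and 38.8 after sham surgery and 380, 355 and 313 after MI. The sham and MI ranges were far apart in both genotypes, and PKM2fl/fl sham library 3, the one low in neutrophil markers, was the lowest of its group. On the log2(normalized count + 1) scale the difference was 1.73 ± 0.31 (SE, 3 against 3 libraries, adjusted p = 0.000256) in PKM2fl/fl and 2.97 ± 0.31 (adjusted p = 1.56e-06) in PKM2-/- hearts. Fold changes on this scale understate the change of genes near the floor, and Nlrp3 is the member nearest to it, with 12 to 50 reads per baseline library.

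Aim2 (chr1:173349547-173466040) encodes a sensor of double-stranded DNA in the cytosol. It measured 118, 133 and 124 in PKM2fl/fl sham and 373, 335 and 559.7 in PKM2fl/fl MI libraries, and 143, 145 and 142 in PKM2-/- sham and 523, 515 and 548 in PKM2-/- MI libraries. The 3 PKM2-/- libraries of each condition lay close together, while PKM2fl/fl MI library 3 lay with the PKM2-/- libraries rather than with its own group. The rise was 3.29-fold in PKM2fl/fl (adjusted p = 1.01e-06) and 3.67-fold in PKM2-/- hearts (adjusted p = 3.31e-07).

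Nlrc4 (chr17:74426255-74459144), which joins NAIP receptors for bacterial flagellin and secretion needles, was the weakest responder among the sensors. Its levels were 55.2, 78.0 and 67.2 in PKM2fl/fl sham against 113, 103 and 132 in MI libraries, and 90.0, 79.7 and 69.0 in PKM2-/- sham against 94.0, 158 and 127 in MI libraries. The highest PKM2-/- sham value lay just under the lowest MI value. The increase was 1.73-fold (adjusted p = 0.00883) in PKM2fl/fl and 1.55-fold (adjusted p = 0.0259) in PKM2-/- hearts, and the PKM2-/- call was lost without sham library 2 (adjusted p = 0.0518), sham library 3 (0.0897), MI library 2 (0.130) or MI library 3 (0.0647). In PKM2fl/fl hearts the call was lost with scaling to total reads (adjusted p = 0.212). Exons of Nlrc4 overlap Slc30a6 on the other strand, and whether the counting used strand is not given in the sources used here.

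Pycard (chr7:127991373-127993867), the adaptor, read 214, 222 and 197 in PKM2fl/fl sham and 250.4, 294 and 450.0 in MI libraries, and 278, 131 and 180.2 in PKM2-/- sham and 435, 435 and 411 in MI libraries. The spread inside the PKM2fl/fl MI group was wide, with library 3 far above libraries 1 and 2. The difference of 0.60 ± 0.25 did not pass the test in PKM2fl/fl (adjusted p = 0.0547), where it passed by DESeq2 (0.0277) and edgeR (0.0362) and ranged from 0.36 (0.252), without MI library 3, to 0.78 (0.0259), without MI library 1, when 1 library was left out. It rose 2.28-fold in PKM2-/- hearts (adjusted p = 0.000795). Its exons overlap the opposite-strand locus Gm45205, whose level followed Pycard with r = 0.98 over the 16 libraries. Reads of the shared stretch cannot be told apart without strand.

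The inflammatory caspase genes sit side by side on chromosome 9, Casp1 at 5298517-5307281 and Casp4 at 5308849-5336791 in the same orientation, 1568 bases apart, and both are given at every condition. Casp1 encodes the protease of the canonical inflammasome. It measured 69.9 and 63.0 at baseline in PKM2fl/fl and 72.3 and 47.6 in PKM2-/- hearts, and 95.2, 86.2 and 72.6 in PKM2fl/fl sham and 173, 189.7 and 198 in MI libraries, and 96.5, 45.7 and 77.7 in PKM2-/- sham and 180.0, 189 and 188 in MI libraries. The 6 MI libraries of both genotypes fell within 173 to 198. The rise was 2.20-fold in PKM2fl/fl (adjusted p = 0.000930) and 2.62-fold in PKM2-/- hearts (adjusted p = 0.000134).

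Casp4, the mouse gene also called caspase-11, detects cytosolic lipopolysaccharide and cuts gasdermin D directly. It measured 117 and 129 at baseline, 326, 278 and 157 after sham surgery and 413, 376 and 473 after MI in PKM2fl/fl hearts. In PKM2-/- hearts it measured 128 and 117 at baseline, 323, 389 and 329 after sham surgery and 623, 571 and 511 after MI. Every sham value lay above every baseline value, and PKM2fl/fl sham library 3 was again the lowest of its group. The step from sham to MI was 1.72-fold in PKM2fl/fl (log2 difference 0.79, adjusted p = 0.00487; 0.156 with scaling to total reads) and 1.64-fold in PKM2-/- hearts (adjusted p = 0.00803). Without sham library 3 the PKM2fl/fl log2 difference was 0.47 (adjusted p = 0.0174).

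Gsdmd (chr15:75862144-75867408), the pore former, gave 199, 176 and 216 in PKM2fl/fl sham and 259.7, 261 and 307 in MI libraries. It gave 262, 197 and 123 in PKM2-/- sham and 363, 309 and 382 in MI libraries. The groups were separate but close in PKM2fl/fl, where the 1.40-fold difference did not pass (adjusted p = 0.0801; 0.0264 when only those groups were fitted, and 0.0243 to 0.207 when 1 library was left out), and the rise was 1.88-fold in PKM2-/- hearts (adjusted p = 0.00249).

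Ripk1 (chr13:34002225-34035170), the kinase that sits at the tumor necrosis factor receptor and can lead to survival, apoptosis or necroptosis, was the most strongly counted member before adjustment for length. It measured 622, 563 and 501 in PKM2fl/fl sham against 1047, 986 and 1185 in MI libraries, and 563, 594 and 619 in PKM2-/- sham against 1383, 1200.3 and 1342 in MI libraries. The 4 baseline libraries lay between 508 and 565, and no MI library of either genotype came down to the sham range. The rise was 1.91-fold in PKM2fl/fl (adjusted p = 4.47e-06) and 2.21-fold in PKM2-/- hearts (adjusted p = 5.04e-07), and its exons overlap Serpinb6a on the other strand.

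Ripk3 (chr14:55784995-55788857), the kinase that phosphorylates MLKL, was at 74.0, 58.5 and 48.0 in PKM2fl/fl sham and 317, 219.7 and 327 in MI libraries. It was at 69.1, 61.4 and 75.5 in PKM2-/- sham and 375, 323 and 355 in MI libraries. No MI library came within 2-fold of a sham library. The rise was 4.72-fold (log2 difference 2.24 ± 0.23, adjusted p = 2.51e-06) in PKM2fl/fl and 5.06-fold (2.34 ± 0.23, adjusted p = 1.11e-06) in PKM2-/- hearts.

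Mlkl (chr8:111311255-111338479), the necroptosis effector, stood at 155, 134 and 208 in PKM2fl/fl sham and 459, 434 and 521 in MI libraries, and at 291, 208 and 236 in PKM2-/- sham and 508, 467 and 564 in MI libraries. The MI groups overlapped between genotypes, whereas only the highest PKM2fl/fl sham library reached the lowest PKM2-/- sham library. The rise was 2.87-fold in PKM2fl/fl (adjusted p = 5.20e-06) and 2.10-fold in PKM2-/- hearts (adjusted p = 7.11e-05).

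**Figure D1:**
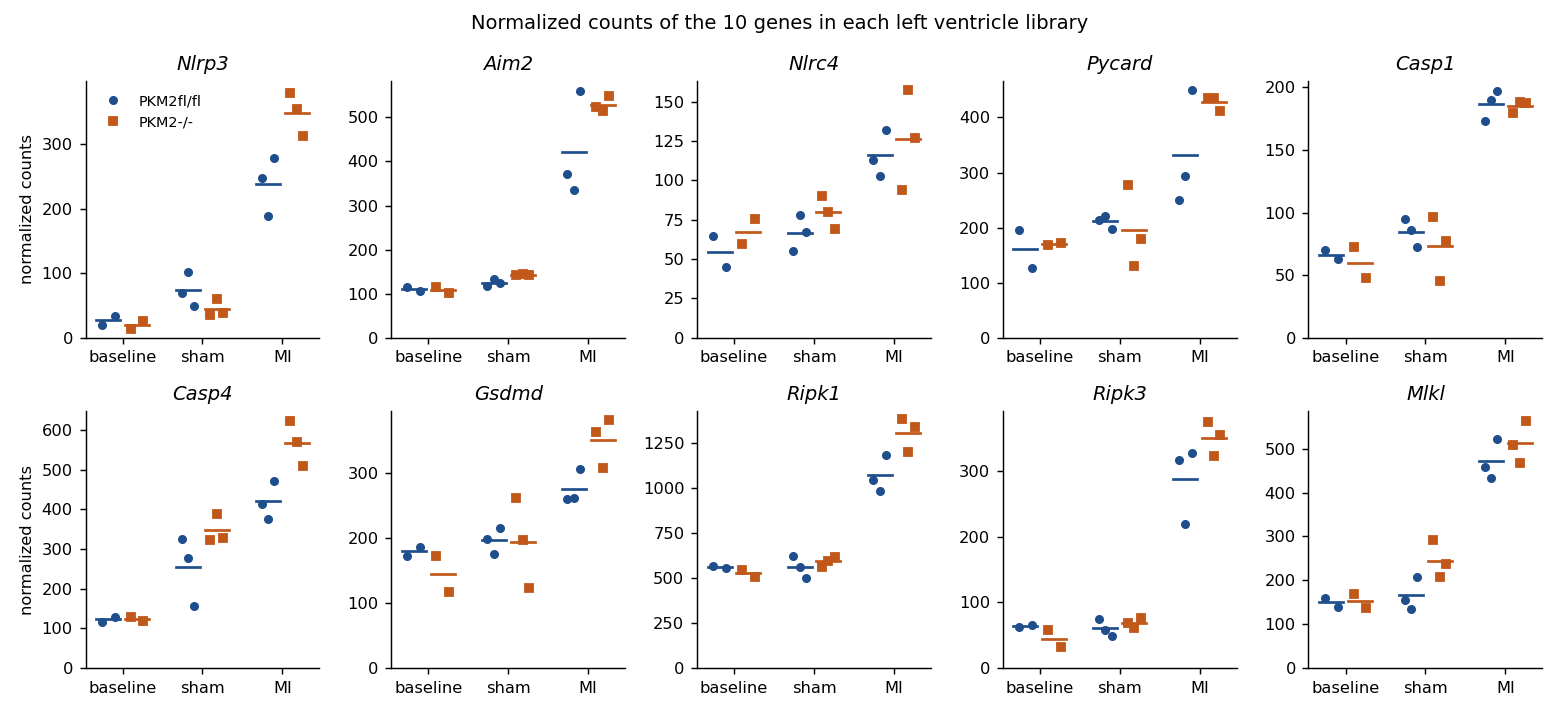
Normalized counts (vertical axes, from 0) of the 10 genes in each library, grouped on the horizontal axes as baseline (2 libraries a genotype), sham (3) and MI (3), with circles for PKM2fl/fl, squares for PKM2-/- and short lines for group means. In every panel the MI libraries lie above the sham libraries of the same genotype, Casp4 already steps up from baseline to sham, and Casp1 has the narrowest MI range, 173 to 198 over both genotypes.

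Of the 8 members that passed with higher levels after MI in PKM2fl/fl hearts, 5 also reached 2-fold (Nlrp3, Aim2, Casp1, Ripk3 and Mlkl), 5 of 10 against 12.4% of the 20576 genes tested. In PKM2-/- hearts 7 of 10 reached it, with Pycard and Ripk1 added, against 14.5%. The median log2 difference of the members was 1.04 in PKM2fl/fl and 1.16 in PKM2-/- hearts, against -0.0025 and 0.010 over all genes tested. Scaling to total reads moved the median of all expressed genes by -0.17 in PKM2fl/fl and 0.51 in PKM2-/- hearts. Under it all genes split into 2049 higher and 2851 lower by at least 2-fold in PKM2fl/fl, against 2553 and 2279 as reported, and into 5494 and 1512 in PKM2-/- hearts, against 2974 and 2949. Members past the test at any fold then numbered 6 of 10 in PKM2fl/fl hearts, where 11.5% of all genes passed with higher levels, and 10 of 10 in PKM2-/- hearts, where 35.2% did.

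Markers of leukocytes rose and those of cardiomyocytes fell in the same libraries. All 5 leukocyte markers passed with higher levels after MI in both genotypes, and their summed level went from 1596 to 2937 in PKM2fl/fl sham to 7635 to 10973 in MI libraries, and from 2095 to 2514 to 10559 to 10945 in PKM2-/- hearts. Of 10 monocyte and macrophage markers, 9 passed with higher levels in each genotype, none being at 0 in any library, with sums of 10615 to 14715 in PKM2fl/fl sham, 25073 to 35466 in PKM2fl/fl MI, 12733 to 14105 in PKM2-/- sham and 30417 to 34187 in PKM2-/- MI libraries. Of 6 neutrophil markers tested 3 passed in each genotype. The 9 listed neutrophil markers summed to 238 to 1387 in PKM2fl/fl sham, 1337 to 2348 in PKM2fl/fl MI, 1068 to 1339 in PKM2-/- sham and 3785 to 4922 in PKM2-/- MI libraries, with Ly6g, Camp or Ngp at 0 in some libraries. Of 7 fibroblast markers 5 passed with higher and 1 with lower levels in each genotype. Their sums were 24281 to 45617 in PKM2fl/fl sham and 162506 to 176380 in PKM2fl/fl MI libraries. In PKM2-/- hearts they were 27837 to 45316 and 141915 to 196415. Of 9 cardiomyocyte markers 8 fell by the test in PKM2fl/fl and 9 in PKM2-/- hearts. In tissue RNA, more cells of a type and more RNA of a gene per cell cannot be told apart, and the part of these markers in the members' rise was not tested.

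**Figure D2:**
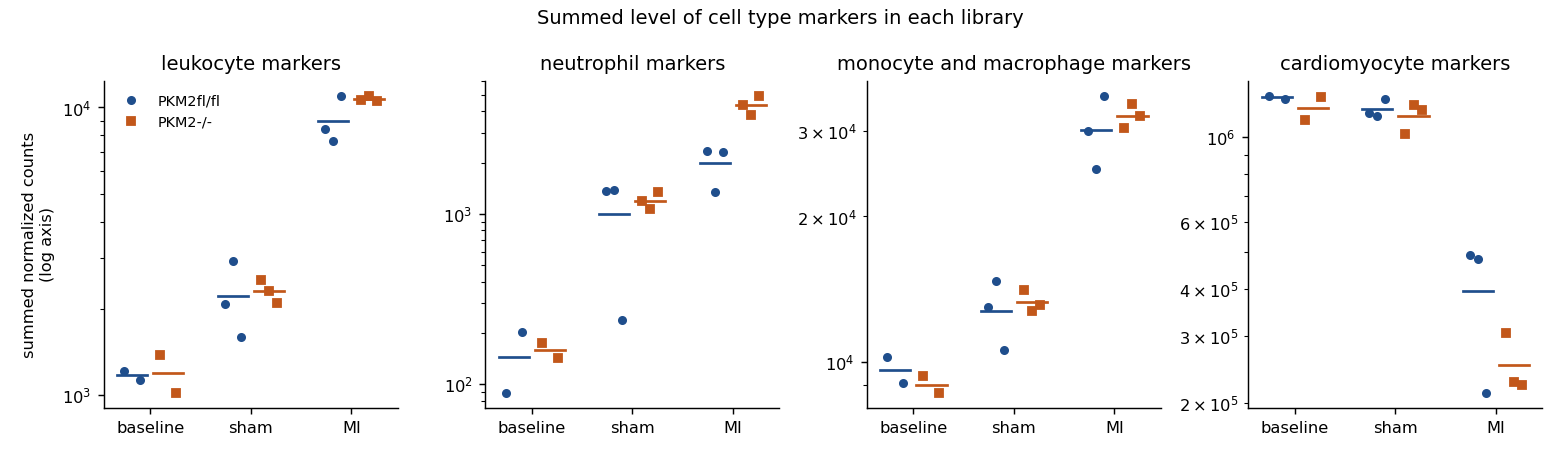
Summed normalized counts of cell type markers (vertical axes, logarithmic) in each library of the baseline, sham and MI groups, with circles for PKM2fl/fl, squares for PKM2-/- and short lines for means. Leukocyte and macrophage sums rise and cardiomyocyte sums fall with MI. In the neutrophil panel the PKM2-/- MI libraries (3785 to 4922) lie above the PKM2fl/fl MI libraries (1337 to 2348). In that panel PKM2fl/fl sham library 3 lies far below the other sham libraries.

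Whether loss of PKM2 changed these genes was asked at each condition. After MI, 0 of 10 members passed, where 0.394% of genes passed with higher and 0.573% with lower levels in PKM2-/- hearts. DESeq2 and edgeR also passed 0, and 2 of 10 members, Aim2 and Ripk1, had an unadjusted p under 0.05, near the 17.0% of all genes that did. The median difference over the members was 0.32 on the log2 scale, against -0.0035 over all genes. Scaling to total reads moved the median of all genes by 0.36 and turned the split of 2-fold calls from 32 higher and 53 lower to 101 and 20. Nlrp3, Casp4, Gsdmd and Ripk1, 4 of 10, had every PKM2-/- MI library above every PKM2fl/fl MI library, against 10.7% of all genes.

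Ripk1 differed by 0.29 (95% interval 0.070 to 0.51, adjusted p = 0.168), Aim2 by 0.36 (0.018 to 0.70, adjusted p = 0.269) and Nlrp3 by 0.56 (-0.088 to 1.22, adjusted p = 0.368). Without PKM2fl/fl MI library 3, which had the fewest cardiomyocyte transcripts of its group, Aim2 differed by 0.58 (adjusted p = 0.0109) and Ripk1 by 0.36 (adjusted p = 0.0385). The share of all genes passing with higher levels then went from 0.394% to 3.39%. The cardiomyocyte marker sum was 212657 in that library and 223024 to 305736 in the PKM2-/- MI libraries. The part of cardiomyocyte content in these differences was not tested. Casp1 had the smallest estimate of the 10, -0.0090, with an interval from -0.51 to 0.50. Mlkl differed by 0.12, with an interval from -0.24 to 0.49. The neutrophil markers that stood apart between the same groups had a median difference of 1.44, with 0 of 6 past the test by limma, DESeq2 or edgeR and 4 of 6 at an unadjusted p under 0.05 by limma, and their part was not tested.

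After sham surgery, 0 of 10 members passed between genotypes, and 0.00486% of genes passed with higher and 0.00486% with lower levels in PKM2-/- hearts. DESeq2 and edgeR also passed 0, while 3 of 10, Mlkl, Casp4 and Nlrp3, had an unadjusted p under 0.05, against 9.95% of all genes. Mlkl was 1.49-fold the PKM2fl/fl level (log2 difference 0.57, interval 0.21 to 0.93, adjusted p = 0.233). Casp4 differed by 0.51 (0.074 to 0.95, adjusted p = 0.413) and Nlrp3 by -0.68 (-1.33 to -0.024, adjusted p = 0.481). Aim2 was the 1 member whose sham libraries did not overlap, against 8.27% of genes. At baseline, with 2 libraries a genotype, 0 of 10 passed, where 0.00972% of genes passed with higher and 0.0% with lower levels, and 0 of 10 had an unadjusted p under 0.05, against 3.64% of all genes. edgeR also passed 0, and DESeq2 gave no adjusted p for the members there. Gsdmd, Ripk1 and Ripk3 had both PKM2-/- baseline libraries below both PKM2fl/fl libraries, 3 of 10 against 17.2% of genes, and Ripk3 differed by -0.57 (-1.17 to 0.033, adjusted p = 1).

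The response to MI itself was compared between genotypes by an interaction term. None of the 10 members passed, and 0.0% of genes passed in either direction, with 1 of 10 members, Nlrp3, and 8.28% of all genes at an unadjusted p under 0.05. edgeR passed no gene, and DESeq2 passed 30 higher and 30 lower, with no member among them. The Nlrp3 rise was larger in PKM2-/- hearts by 1.24 on the log2 scale (interval 0.32 to 2.16, unadjusted p = 0.0118, adjusted p = 0.511), which combines a lower sham level with a higher MI level. Mlkl ran the other way by -0.45 (-0.96 to 0.063, adjusted p = 0.658), with a higher sham level in PKM2-/- hearts. The other 8 lay between -0.16 and 0.58.

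**Figure D3:**
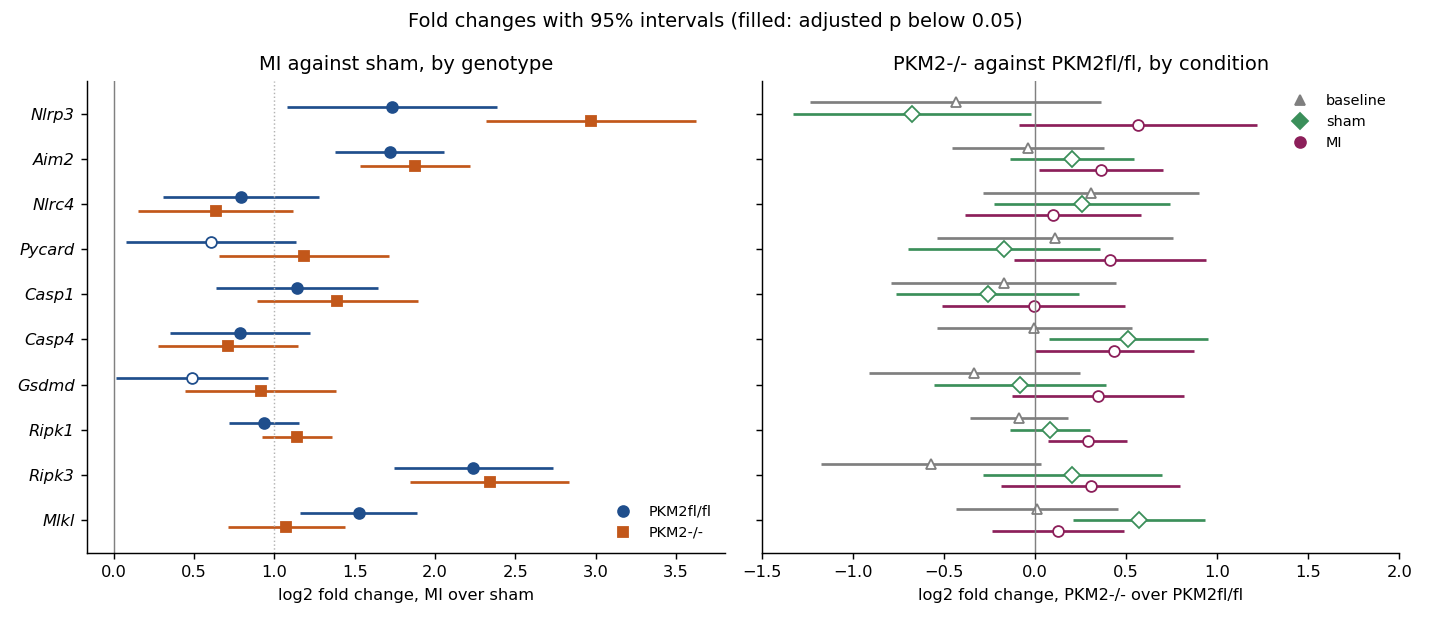
Log2 fold changes (horizontal axes) of the 10 genes with 95% intervals, filled where the adjusted p is below 0.05. On the left, MI against sham is drawn for PKM2fl/fl (circles) and PKM2-/- (squares), with a dotted line at 2-fold, and 8 and 10 symbols are filled. On the right, PKM2-/- against PKM2fl/fl is drawn at baseline (triangles), sham (diamonds) and MI (circles), and no symbol is filled.

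Hearts after sham surgery were also compared with the untreated baseline hearts. The comparison holds all that differed between these groups, not thoracotomy alone. In PKM2-/- hearts 1 of 10 members passed, Casp4, where 3.48% of genes passed with higher and 1.66% with lower levels, and 1 of 10 reached 2-fold, against 2.06%. Casp4 rose by 1.49 ± 0.23 on the log2 scale (2.81-fold, adjusted p = 0.00261). Nlrp3 differed by 1.16 (adjusted p = 0.0655), Mlkl by 0.68 (0.0516) and Ripk3 by 0.67 (0.161). With the replicate block Nlrp3 (0.0493) and Mlkl (0.0478) passed, where 2.95% of all genes did with higher levels, and Mlkl passed by DESeq2 (0.0353), where 4.68% did. Nlrp3, Aim2, Casp4, Ripk1, Ripk3 and Mlkl, 6 of 10, had every sham library above every baseline library, against 18.4% of genes. The 6 neutrophil markers tested all passed, with a median difference of 3.40 and sums of 143 to 174 at baseline and 1068 to 1339 after sham surgery, and their part in the Casp4 rise was not tested.

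In PKM2fl/fl hearts 0 of 10 members passed for sham against baseline, where 0.165% of genes passed with higher and 0.0243% with lower levels. Casp4 differed by 0.97 (1.96-fold, adjusted p = 0.103) and Nlrp3 by 1.40 (2.63-fold, adjusted p = 0.115), the 2 of 10 members with an unadjusted p under 0.05, against 8.81% of all genes. Both passed by DESeq2, with adjusted p = 0.00557 and 0.00677, where 1.38% of all genes passed with higher levels, and without sham library 3 (0.00134 and 0.0321), where 1.15% did, and 0 passed by edgeR. Nlrp3, Aim2, Pycard, Casp1 and Casp4, 5 of 10, had no overlap between baseline and sham, against 17.4% of genes. Ripk1 and Ripk3 were level, at -0.0026 and -0.10. The 6 neutrophil markers tested had a median difference of 2.93 here. Of them 0 passed by limma or edgeR and 6 by DESeq2, and 6 had an unadjusted p under 0.05 by limma. The 9 listed markers summed to 88.7 to 202 at baseline and 238 to 1387 after sham surgery. Their part in the differences of the members was not tested. Group means rose in the order baseline, sham, MI for 10 of 10 members in PKM2-/- and for 9 of 10 in PKM2fl/fl hearts, the exception being Ripk3.

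Levels can be ordered between genes only per length, here normalized counts per kilobase of the GENCODE canonical transcript. Pycard was left out because its annotated transcript is longer than its RefSeq gene. The order depends on the length used. The canonical transcript and all exons together span 1441 and 5249 bases for Casp4, 2079 and 6574 for Aim2, but 1894 and 2531 for Ripk3. Levels per length of all exons were not computed. In PKM2fl/fl MI hearts Casp4 was highest, 292 ± 34 per kilobase (SD, n = 3), followed by Aim2 at 203 ± 58, Ripk1 at 159 ± 15, Ripk3 at 152 ± 31 and Gsdmd at 140 ± 14, and these neighbours overlapped. Casp1 at 122 ± 8.1 and Mlkl at 113 ± 11 formed the next pair, and Nlrp3 at 59.3 ± 11 and Nlrc4 at 24.3 ± 3.1 came last, each apart from its neighbours. At PKM2fl/fl baseline Gsdmd, Casp4 and Ripk1 led with 91.1, 85.5 and 83.2, without separation, and Nlrp3 was lowest at 6.66 ± 2.2 (n = 2). In PKM2-/- MI hearts the order of the first 5 was the same, led by Casp4 at 394 ± 39, and Mlkl stood at 123 before Casp1 at 121. Nlrp3 had the lowest mean of the 9 at baseline in both genotypes and stood above Nlrc4 after MI in both.

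The 10 genes moved together across libraries, which share the large step between surgical groups. Over the 45 pairs Pearson's r on the log2 scale was 0.69 to 0.98 with a median of 0.85 over 16 libraries. After subtraction of group means the range was -0.74 to 0.74 with a median of 0.19. Nlrp3 was most like Aim2 among the members, Aim2 most like Ripk1, and Casp4 most like Nlrp3 (r = 0.87). The lowest pair was Nlrc4 with Gsdmd. Outside the set, genes closest to the mean standardized level of the members were Tnfrsf1b (r = 0.99), the second receptor for tumor necrosis factor, then Fen1, P4hb, Notch2, Fgd3, Arhgap11a, E2f1, Soat1 and Diaph3, all with r of 0.99. The single gene most like Nlrp3 was Pirb (r = 0.98), that most like Casp4 was Mmp8 (r = 0.98), that most like Aim2 was Actr3 (r = 0.996), that most like Ripk1 was Spred1 (r = 0.99), and that most like Ripk3 was Kcnk13 (r = 0.99). Those of Nlrc4, Casp1, Gsdmd and Mlkl were Msi1, Gm16731, Napsa and Gm17089.

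Other genes of the pathways were taken from a list of 67, of which 66 were in the table and 61 passed the filter. After MI 24 of the 61 rose and 8 fell in PKM2fl/fl hearts, and 27 rose and 8 fell in PKM2-/- hearts, with median differences of 0.18 and 0.27. Over all genes 24.8% rose and 25.3% fell in PKM2fl/fl hearts, and 28.7% rose and 28.1% fell in PKM2-/- hearts. Between genotypes after MI 0 of 61 passed in either direction by limma or edgeR, 11 of 61 had an unadjusted p under 0.05 by limma, near the 17.0% of all genes, and 3 of the 58 with an adjusted p passed by DESeq2 (Tnfrsf1a, Kcnk6 and Birc3), near the 5.79% of all genes. The counts for each role follow, to be read beside the 24.8% and 28.7% of all genes that rose. Differences between roles were not tested.

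Among sensors and their helpers 6 of 9 rose in each genotype, all of them beyond 2-fold: Mefv, Nlrp1b and the NAIP receptors Naip1, Naip2, Naip5 and Naip6. The NAIP genes are near-identical copies, so the split of reads among them is uncertain. Nlrp10 fell in both, by 0.98 and 1.05, and its exons overlap Eif3f on the other strand. Exons of other genes in the list, such as Hmgb1 and Tnfrsf1a, also overlap counted genes, and the strand setting is not given. Mefv, which encodes the sensor pyrin, was at 18.2, 41.1 and 4.90 in PKM2fl/fl sham and 235, 133 and 211 in MI libraries, and rose by 3.49 on the log2 scale (adjusted p = 0.000300), and by 4.03 in PKM2-/- hearts (adjusted p = 6.16e-05). Naip5 rose by 1.93 and 1.83. Nek7, the kinase that NLRP3 needs to assemble, showed -0.20 and -0.05 and passed in neither genotype. Txnip, which binds thioredoxin and has been placed upstream of NLRP3, fell by 0.84 in PKM2fl/fl hearts (adjusted p = 0.0291) and measured -0.65 in PKM2-/- hearts (0.0771).

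The channels that feed NLRP3 rose without exception, 4 of 4 in each genotype, P2rx7, the receptor for extracellular ATP, by 0.82 and 0.88. The interferon-inducible genes upstream of caspase-4 and AIM2 behaved otherwise. Of 7, Irf8 rose in both genotypes, and Gbp5 fell in PKM2-/- hearts by 1.32 (adjusted p = 0.0431). Gbp2 measured 709, 507 and 1588 in PKM2fl/fl sham and 757, 1061 and 496 in MI libraries, and 1743, 478 and 648 in PKM2-/- sham libraries, so single sham libraries in each genotype exceeded all others. Its difference was -0.17 in PKM2fl/fl and -0.70 in PKM2-/- hearts, and passed in neither.

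Of the 4 cytokines processed or released, Il1b and Il18 rose in both genotypes, Hmgb1 fell in both, and Il1a passed in neither. Il1b was at 110.5, 179.6 and 24.5 in PKM2fl/fl sham and 478, 189 and 358 in MI libraries, and rose by 2.00 (adjusted p = 0.0137), and by 2.10 in PKM2-/- hearts (0.00875). Its lowest sham value was again that of PKM2fl/fl sham library 3. Il18 rose by 1.60 (adjusted p = 0.000561) and 1.88 (0.000107). Il1a differed by 0.48 and 0.66, with adjusted p of 0.460 and 0.288.

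Other pyroptotic effectors and caspases rose in 2 of 5 cases in each genotype. Gsdme, a relative of gasdermin D, measured -0.16 and 0.09, and Ninj1, which ruptures the membrane at the end of lytic death, 0.12 and 0.36, and none of these passed. Of 9 membrane repair genes 2 rose and 2 fell in PKM2fl/fl, and 3 rose and 1 fell in PKM2-/- hearts, with differences from -0.62 to 0.74.

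On the necroptosis side 2 of 10 triggers rose and 1 fell in PKM2fl/fl, and 3 rose and 1 fell in PKM2-/- hearts. The one that fell was Fas, a death receptor, by 0.94 and 1.01. Tnfrsf1a, the first receptor for tumor necrosis factor, rose by 0.84 and 0.99, and Tnf rose, at 18.2 to 61.3 normalized counts in the 6 MI libraries. Fadd, the adaptor of the death receptors, measured -0.21 and -0.02. Zbp1, the nucleic acid sensor that can activate RIPK3, was erratic, at 108, 83.1 and 279.9 in PKM2fl/fl sham and 488, 427 and 202 in MI libraries, and its differences of 1.35 (adjusted p = 0.0601) and 0.50 (0.475) passed in neither genotype. Of 13 brakes on necroptosis 5 rose and 2 fell in PKM2fl/fl, and 6 rose and 3 fell in PKM2-/- hearts. Casp8, the protease that cleaves RIPK1 and RIPK3, rose by 1.52 and 1.36 (adjusted p = 1.11e-06 and 1.91e-06), Tnfaip3, which encodes the ubiquitin editor A20, by 1.12 and 1.18, and Birc3, a ubiquitin ligase that modifies RIPK1, by 0.76 and 0.94. Cflar, the partner that tunes caspase-8, measured 0.18 in each and did not pass.

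**Figure D4:**
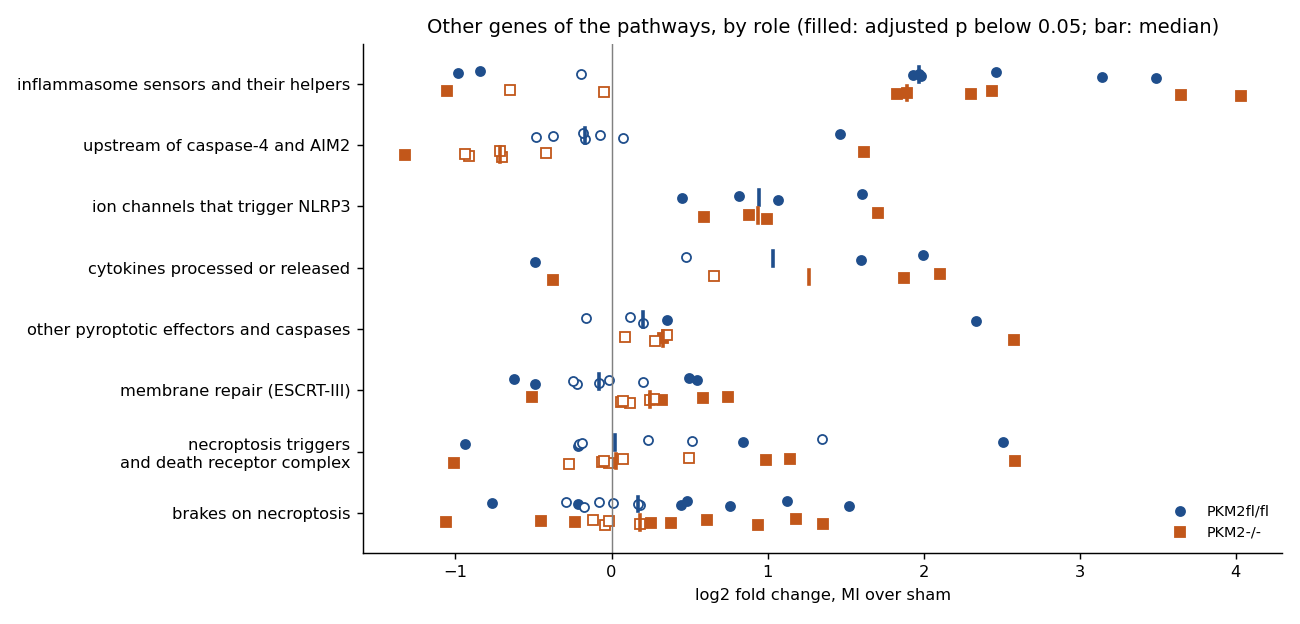
Log2 fold changes of MI over sham (horizontal axis) for the 61 other pathway genes that passed the filter, in rows by role, with circles for PKM2fl/fl, squares for PKM2-/-, filled symbols where the adjusted p is below 0.05 and bars for medians. The 6 raised sensors, the NLRP3 channels, Il1b, Il18 and Casp8 lie to the right of 0, the genes upstream of caspase-4 and AIM2, except Irf8, lie around or to the left of it, and the membrane repair genes lie on both sides, from -0.62 to 0.74.

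Casp4 was the member that passed for sham against baseline in PKM2-/- hearts. Of the 61, 9 passed in this comparison with higher and 0 with lower levels after sham surgery. They were Zbp1, Tnfrsf1a, Kcnk6, Irf8, Birc3, Il18, Ninj1, Mefv and Fas, named after their values were seen. Over all genes tested, 3.48% passed with higher and 1.66% with lower levels by limma in this comparison. Il18 rose by 1.41 (adjusted p = 0.0298) and Zbp1 by 3.17 (adjusted p = 0.0103). By edgeR 4 passed (Zbp1, Tnfrsf1a, Kcnk6 and Fas), where 1.95% of all genes passed with higher levels. In PKM2fl/fl hearts 0 of 61 passed for the same comparison by limma or edgeR, 10 of 61 had an unadjusted p under 0.05 by limma, against 8.81% of all genes, and 2 of 61 passed by DESeq2 (Il1b and Mefv), against 1.38%.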

How the data were processed

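Left ventricle RNA of 16 libraries was depleted of rRNA, sequenced in pairs, aligned to mm10 with HISAT2 and counted per gene with featureCounts. The strand and multimapping settings are not given in the sources used here. The deposited signal values are gene counts that the authors divided by DESeq2 size factors, per the file headers and the methods, and 100.0% of them came back to whole reads within 0.01. The deposited table also holds the authors' own comparisons (log2 fold changes, a score that is the test statistic, and p-values), which were not used. All 16 value columns were assigned by title, and 0 were left without a sample.

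The main test was limma-trend (limma 3.58.1, R 4.3.3) on log2(normalized count + 1), for genes with a mean of at least 10, over 16 libraries in 6 groups with Benjamini-Hochberg adjustment (threshold 0.05, with 2-fold as a second rule). It was checked on simulated counts. Recovered reads were also tested with edgeR 4.0.16 and DESeq2 1.42.0. Other alternatives were a pseudocount of 0.1, no filter, TMM size factors, total reads with and without rRNA-related loci (7 of 13 listed were found), only the groups compared, a replicate block, and leaving out each library. The labels do not say whether replicate numbers pair animals, and the main test used no pairing.

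The members, pathway and marker lists were chosen with earlier results of these data known. Named were the 10 members, 20 preset pathway genes, the 10 genes most like the members' mean, and the gene most like each member. Of these, 1 pathway gene and 1 of the genes most like the mean are not reported here. Positions (10 of 10 members) and upstream windows (9 of 10, not Gsdmd) are from RefSeq on GRCm38.p6, and transcript lengths and exon overlaps from GENCODE on GRCm39. No 2 libraries of a group agreed within sampling noise. Depth is 20623769 to 71855101 reads a library, and read counts of the members set the precision, since counting error adds to the spread of those with few reads.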

Additional observations from a re-analysis of the deposited data

How the results depend on the processing

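All 25 alternatives kept the direction of the 10 members from sham to MI in both genotypes. Members past the test numbered 6 to 10 in PKM2fl/fl (8 as reported) and 9 to 10 in PKM2-/- hearts (10 as reported). For sham against baseline in PKM2fl/fl hearts, DESeq2 passed 2 members, also beyond 2-fold, against 0, and leaving out single libraries gave 0 to 2, the higher count without sham library 3. In PKM2-/- hearts, where 1 passed, DESeq2 passed 2, the replicate block 3 (2 beyond 2-fold), and leaving out single libraries 1 to 2, the higher count without PKM2fl/fl sham 2 or 3, PKM2fl/fl MI 3 or PKM2-/- sham 2. For PKM2-/- against PKM2fl/fl after MI, leaving out single libraries gave 0 to 2, the higher count without PKM2fl/fl MI library 3. The replicate block changed no other count of members beyond 1.5 times. Of 36 same-numbered pairs, 1 had a correlation of deviations over 0.1, and 3 of 16 libraries were closest to one with their own number.

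Scaling to total reads turned the sign of small genotype differences that passed no test. After MI Casp1 went to 0.36 (0.15 without rRNA-related loci). After sham surgery Aim2 went to -0.12, Nlrc4 to -0.063, Ripk1 to -0.24 and Ripk3 to -0.11. At baseline Nlrc4 went to -0.27, Pycard to -0.48 (-0.014 without rRNA-related loci) and Mlkl to -0.58 (-0.11). The interaction went to 0.53 (0.064) for Nlrc4, 0.61 (0.15) for Casp4 and 0.24 for Mlkl. For sham against baseline in PKM2fl/fl hearts DESeq2 put Ripk1 at 0.0020. The same scaling moved the median of all genes by -0.32 after sham surgery, -0.58 at baseline and 0.68 in the interaction.

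Leaving out 1 library at a time turned the sign of these small differences. After MI between genotypes the ranges were -0.076 to 0.29 for Nlrc4 and -0.062 to 0.032 for Casp1. After sham surgery they were -0.46 to 0.086 for Pycard, -0.49 to 0.041 for Casp1 and -0.33 to 0.21 for Gsdmd. At baseline they were -0.14 to 0.055 for Aim2, -0.21 to 0.42 for Pycard, -0.47 to 0.12 for Casp1, -0.077 to 0.068 for Casp4 and -0.14 to 0.16 for Mlkl. In the interaction they were -0.33 to 0.039 for Nlrc4, -0.050 to 0.48 for Casp1, -0.29 to 0.24 for Casp4 and -0.084 to 0.25 for Ripk3. For sham against baseline they were -0.078 to 0.077 for Ripk1, -0.26 to 0.044 for Ripk3 and -0.054 to 0.26 for Mlkl in PKM2fl/fl, and -0.15 to 0.39 for Pycard and -0.045 to 0.55 for Casp1 in PKM2-/- hearts. The cause of these shifts was not tested.

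Counts of all genes called between genotypes after MI ran from 0 to 145 higher (32 as reported) and 3 to 487 lower (53). For the other comparisons the higher and lower calls ran from 0 to 71 (1) and 0 to 78 (0) after sham surgery, 0 to 40 (2) and 0 to 37 (0) at baseline, 0 to 36 (0) and 0 to 195 (0) for the interaction, 1 to 226 (33) and 0 to 17 (2) for sham against baseline in PKM2fl/fl, and 194 to 551 (423) and 24 to 170 (125) in PKM2-/- hearts. Nlrp3 had 12 to 50 reads a library at baseline, the fewest of the members, and the baseline groups held 2 libraries each.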
